A study of Mus musculus with 12 samples.

Results

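The response of Hdac3 +/- macrophages to lipopolysaccharide (LPS), a cell wall component of Gram-negative bacteria, was taken from 6 of 12 arrays: 3 of cells given 100 ng/ml LPS for 4 h and 3 of untreated cells. All 19945 genes with a single symbol were followed, each through its brightest probe set. The cells were bone marrow-derived macrophages of C57BL/6 mice on day 7 of culture. Their medium held L929-conditioned medium, which supplies the growth factor CSF1. All 6 arrays come from cells with 1 intact Hdac3 allele, which the submitters call wild type, so no group here has both alleles. Hdac3 is a histone deacetylase that works inside the NCoR and SMRT corepressor complexes. The other 6 arrays hold Hdac3 -/- cells of the same strain, culture and treatment. The sources used here do not give how the allele was deleted, the age of the mice or whether replicates are separate animals, so p-values measure the spread between these arrays.

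LPS binds TLR4 with the coreceptors CD14 and MD-2. The adaptors MyD88 and TIRAP then activate NF-kB and AP-1, which drive cytokine and chemokine genes, and the adaptors TRAM and TRIF activate IRF3, which drives interferon beta. Secreted interferon acts back on the cell through its receptor and induces genes with interferon-stimulated response elements (ISRE). In macrophages this program arms the cell for killing microbes, calls in other leukocytes and at the same time induces its own inhibitors.

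The array also carries probe sets for microRNA genes, and the mature sequences of 8 of them are shown. Genes with the let-7 seed moved in opposite directions, as did those with the miR-99 seed, while Mir221 and Mir222 share a seed and both rose. The capitals mark the seed, bases 2 to 8 from the 5′ end, in sequences from RefSeq on GRCm38.p6.
mmu-miR-155-5p: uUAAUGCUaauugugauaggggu
mmu-miR-221-3p: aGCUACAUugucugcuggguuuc
mmu-miR-222-3p: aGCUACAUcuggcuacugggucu
mmu-let-7e-5p: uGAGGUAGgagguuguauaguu
mmu-let-7c-5p: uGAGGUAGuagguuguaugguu
mmu-miR-99b-5p: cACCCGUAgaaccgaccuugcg
mmu-miR-99a-5p: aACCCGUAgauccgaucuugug
mmu-miR-125a-5p: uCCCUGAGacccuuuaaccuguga
The miR-221 and miR-222 pair shared 1 seed, let-7e and let-7c a second, and miR-99b and miR-99a another. The let-7e, miR-99b and miR-125a genes lie together on chromosome 17, and the let-7c-1 and miR-99a genes lie together on chromosome 16.

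Promoter sequence upstream of 7 genes is shown because they rank among the 30 largest rises or, for Chek2, the 30 largest falls, and hold a match to a motif named below. All are RefSeq sequences on GRCm38.p6, written 5′ to 3′ on the strand of the gene and ending at the base before its start. The capitals mark matches to the NF-kB letters (GGG, any 2 bases, then TTTCC), the ISRE letters (GAAA, any 2 bases, then GAAA) or, in Chek2, the E2F letters TTTCCCGC or TTTGGCGC, read on either strand.
Il6 (NF-kB, chr5:30013014-30013113, + strand): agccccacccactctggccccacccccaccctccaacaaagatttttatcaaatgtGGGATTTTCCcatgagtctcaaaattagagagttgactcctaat
Cxcl3 (NF-kB, chr5:90786001-90786100, + strand): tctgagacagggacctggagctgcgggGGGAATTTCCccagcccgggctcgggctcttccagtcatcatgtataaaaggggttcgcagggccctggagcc
Gbp5 (ISRE, then NF-kB, chr3:142496754-142496933, + strand): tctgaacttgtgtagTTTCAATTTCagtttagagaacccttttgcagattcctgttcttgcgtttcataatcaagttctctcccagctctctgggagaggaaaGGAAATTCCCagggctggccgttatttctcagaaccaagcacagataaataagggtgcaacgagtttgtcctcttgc
Ifi205 (ISRE, chr1:174031756-174031905, - strand): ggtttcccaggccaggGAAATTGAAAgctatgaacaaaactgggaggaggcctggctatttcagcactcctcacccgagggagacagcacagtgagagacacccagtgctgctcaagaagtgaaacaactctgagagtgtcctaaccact
Ifit1 (ISRE, 2 matches, chr19:34640769-34640888, + strand): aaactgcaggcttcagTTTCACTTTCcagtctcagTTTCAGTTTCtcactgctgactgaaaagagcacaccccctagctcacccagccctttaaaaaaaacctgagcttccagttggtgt
Gbp3 (ISRE, 2 overlapping matches, chr3:142559964-142560043, + strand): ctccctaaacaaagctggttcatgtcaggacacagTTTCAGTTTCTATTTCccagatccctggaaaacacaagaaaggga
Chek2 (E2F, chr5:110839801-110839982, + strand): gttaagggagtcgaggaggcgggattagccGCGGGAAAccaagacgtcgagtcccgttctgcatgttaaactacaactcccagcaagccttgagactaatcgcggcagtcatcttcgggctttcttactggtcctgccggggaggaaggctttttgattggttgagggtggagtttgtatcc
A match is a description of letters and not a shown binding site. The NF-kB letters used here were chosen after values were seen.

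The deposited values are log2 signals, and the median of the 6 arrays lay between 5.19 and 5.37. In Hdac3 +/- cells Hdac3 itself read 9.42, 9.10 and 8.98 untreated, then 8.90, 9.02 and 8.66 with LPS, a change that did not pass the test (adjusted p = 0.158). All 6 arrays lay above the -/- group means of 7.43 untreated and 7.11 with LPS. The 10 macrophage markers averaged 11.3 to 11.5 in untreated and 11.1 to 11.3 in LPS arrays, and none lay below the median gene. Among them Fcgr1 and Cd14 rose by 1.13 and 1.11 on the log2 scale, and Mertk, Csf1r and Itgam fell by 2.01, 0.60 and 0.37. The call of Itgam was lost without any 1 of 5 arrays, LPS replicate 1 being the exception (adjusted p up to 0.164), with the replicate number as a block (0.0738), with only the 6 arrays (0.151), after cyclic loess (0.0546) and with robust eBayes (0.0531). The summed marker levels of 11 other cell types averaged between 3.02 and 5.75 on every array, and the markers Cd3d, Cd79a, Ncr1 and Kit had group means of 2.59 to 4.46. Untreated, 4 of 7 fibroblast, 3 of 5 osteoclast, 4 of 5 T cell and 3 of 4 endothelial markers lay below the median gene. For the other types all markers did. With LPS the counts were 3 of 7 for fibroblasts, 3 of 5 for T cells, 7 of 8 for neutrophils and 4 of 5 for eosinophils, and the rest kept theirs. Among these lists the eosinophil gene Ccr3 and the endothelial genes Kdr and Cdh5 rose by 1.97, 1.32 and 1.18, and the T cell gene Cd28 fell by 2.06. Cd3e was the 1 T cell marker called higher, a call lost under 7 of 15 alternatives, and the T cell median was 0.22. The endothelial markers Pecam1 and Tek were not called. Of 5 eosinophil markers 3 rose, of 7 fibroblast markers 2 and of 7 dendritic cell markers 1, and 0 of these fell. Cd79a was the 1 B cell marker called higher. The largest rise of a neutrophil marker was 2.24, with 0 of 8 called, and S100a8 was called in 6 of 16 alternatives. The part of these genes in the results was not tested. Replicate 1 of both groups was low in Xist, at 3.93 and 3.20, and high in the Y-linked Eif2s3y, at 7.76 and 7.93, while the other 4 arrays read the reverse, so both sexes are in both groups.

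With LPS 1912 genes rose (9.59% of 19945) and 3085 fell (15.5%) at an adjusted p under 0.05 (limma, Benjamini-Hochberg over all genes), while the median change of all genes was 0.08 on the log2 scale. The falls were more numerous, and from 4-fold upward the rises were. Of the genes called, 712 rose at least 2-fold (3.57%) and 1080 fell at least 2-fold (5.41%), but 244 rose (1.22%) and 104 fell (0.521%) at least 4-fold. At least 8-fold, 107 rose (0.536%) and 14 fell (0.0702%), at least 16-fold 56 (0.281%) and 2 (0.01%), and at least 32-fold 18 (0.0902%) and 1 (0.00501%). The median called rise was 0.76 and the median called fall was -0.83. Rises came from the whole range of untreated signal and falls from its upper part: 11 of the 4987 dimmest genes fell, against 1537 of the 4986 brightest. The quartiles were cut on the same untreated values that enter the change. The part of this, and of the lower end of the signal range, was not tested. Of the 107 rises of at least 8-fold, 12 were in the dimmest quartile of genes, 28 and 50 in the next ones and 17 in the brightest.

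The balance of rises and falls depended on the scaling. At 2-fold or more, 795 rose and 836 fell after quantile normalization, 865 and 717 after cyclic loess, where the order turned, and 643 and 1317 after centring. Of all calls, the share that were rises moved as well. It was 38.3% on the deposited values, 44.2% after quantile normalization, 49.2% after cyclic loess and 30.1% after centring each array on its median. The interquartile range was narrower with LPS, at 3.49, 3.19 and 3.20, than untreated, at 3.70, 3.52 and 3.80. Olfactory receptor genes, which macrophages are not known to use widely and which were dim here, also depended on the scaling. Of 1027, 55 rose (5.36%) and 1 fell (0.0974%), with a median of 0.16. After cyclic loess 11 rose, 5 fell and the median was 0.01. In the dimmest quartile of all genes 6.66% rose and 0.221% fell. The part of the narrower range in these rises was not tested. None of the 1027 changed 2-fold. The 55 became 96 without LPS replicate 1, 28 without untreated replicate 1, 17 without untreated replicate 3 and 19 without LPS replicate 2.

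**Figure D1:**
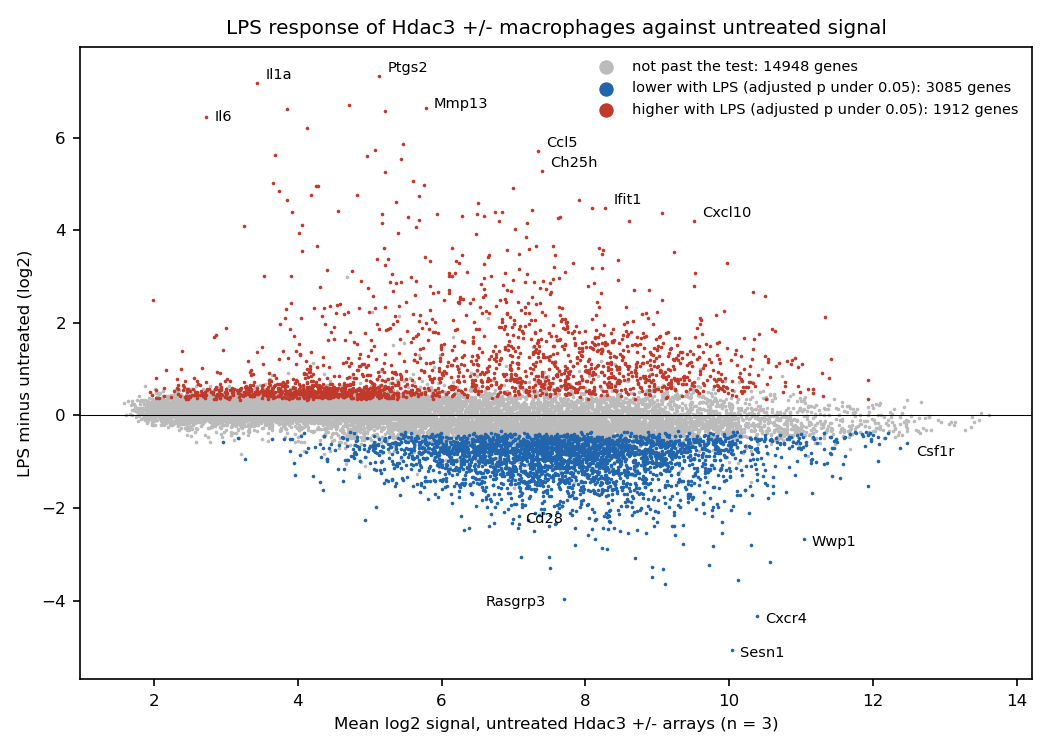
Change with LPS (log2, y axis) against the mean untreated log2 signal (x axis) for each of the 19945 genes in Hdac3 +/- cells; red points rose and blue points fell at an adjusted p under 0.05. The largest rises start from all signal levels in the dimmer part of the range, and the falls lie to the right.

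The 30 largest rises ran from 21.2-fold to 162-fold and 19 of the 30 genes started in the 2 lower quartiles of untreated signal. The median of these 30 went from 5.17 untreated to 10.8 with LPS. The 30 largest falls ran from 5.52-fold to 33.7-fold, 26 of them started in the highest quartile, and their median went from 8.88 to 5.71. In both lists the 3 LPS arrays did not overlap the 3 untreated arrays, which the choice of the genes required (18.1% of all genes were higher and 18.6% lower without overlap).

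**Figure D2:**
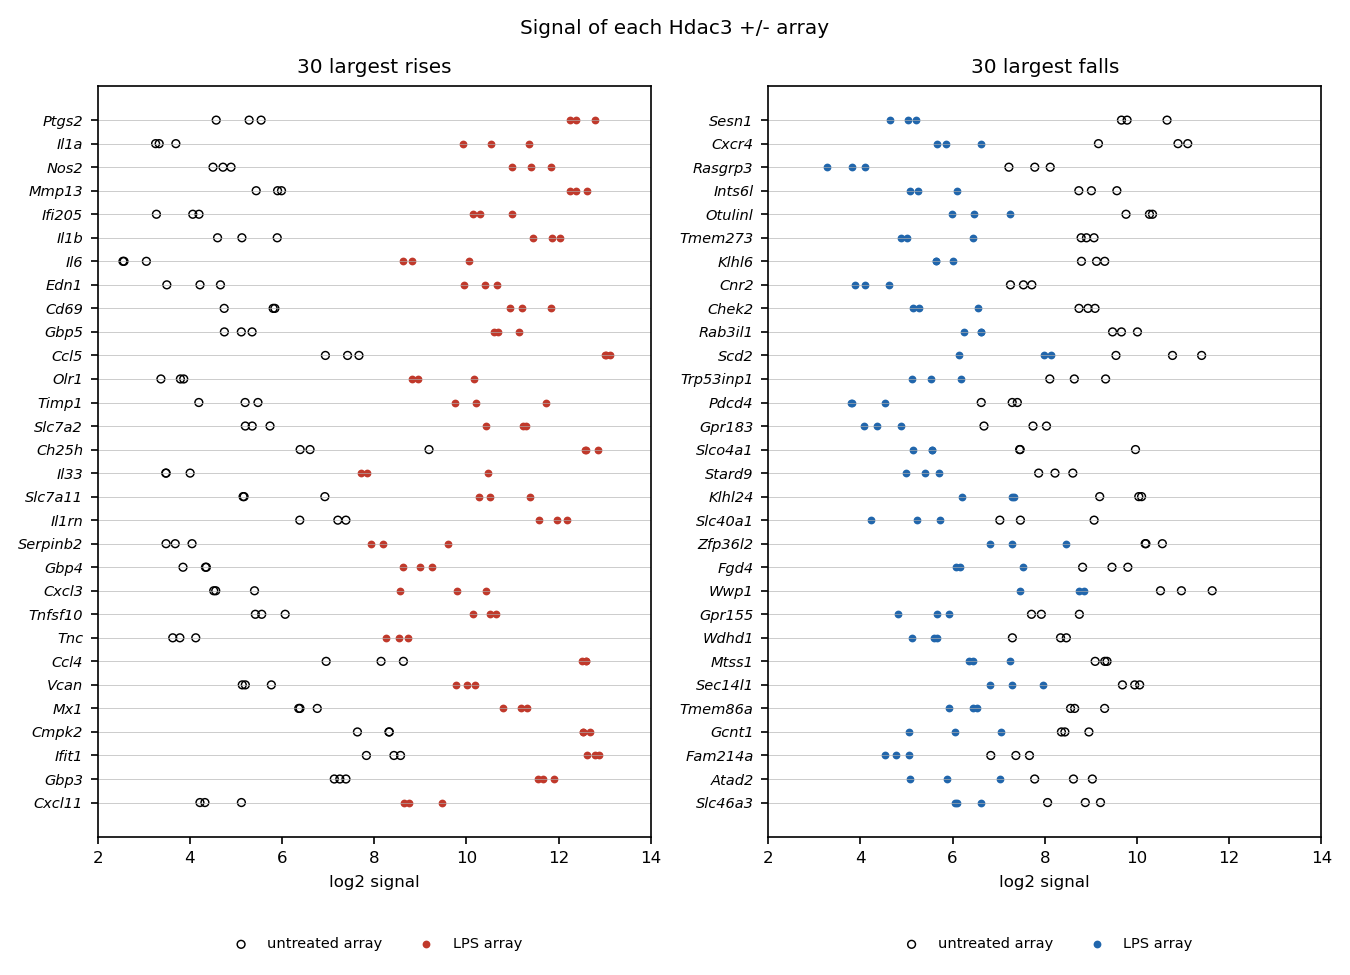
Log2 signal of each of the 6 arrays for the 30 largest rises (left) and the 30 largest falls (right); open circles are untreated and filled circles LPS arrays. Ch25h and Slco4a1 each have 1 untreated array far above the other 2, and Il33 has 1 high LPS array.

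Cytokines of the interleukin 1, 6, 10 and 12 families rose in 15 of 19 genes, with a median change of 3.08 against 0.08 over all genes, and 0 fell (0 also at an unadjusted p under 0.05 in limma). Beside Il1a, Il1b and Il6, the alarmin Il33 read 3.49, 4.01 and 3.48 untreated and 7.85, 10.46 and 7.71 with LPS. Its rise of 5.02 ± 0.57 (1 SE of the model, n = 3 a group, adjusted p = 2.60e-05) was led by replicate 2, in which the LPS array stood far above the others. The receptor antagonist Il1rn, which blocks interleukin 1, rose with its targets, from 7.39, 6.38 and 7.21 to 11.57, 12.19 and 11.97. Il10, the main anti-inflammatory cytokine of macrophages, went from 5.15, 5.25 and 5.09 to 8.49, 9.99 and 9.48, a rise of 4.16 ± 0.36 (adjusted p = 2.66e-06). Il12b, a subunit of interleukins 12 and 23, was uneven: its LPS arrays read 10.93, 6.38 and 6.42 and its untreated arrays 4.42, 4.70 and 3.65. The groups did not overlap, but replicate 1 with LPS stood far above both others.

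Chemokines rose in 7 of 13 CXC and 10 of 14 CC genes, with medians of 2.19 and 1.41, and 0 fell in either family (0 and 0 at an unadjusted p under 0.05). Ccl5, which attracts T cells and monocytes, read 7.42, 7.67 and 6.94 untreated, then 13.03 and 13.11 in LPS replicates 1 and 3 and a little less in replicate 2, a rise of 5.70 ± 0.25 (adjusted p = 5.41e-09). Its LPS arrays lay within a narrow band at the top of the signal range. The neutrophil attractant Cxcl3 went from 4.56, 5.40 and 4.52 to 10.42, 9.79 and 8.57, and Cxcl2 rose by 4.39 ± 0.46. The monocyte attractants Ccl2, Ccl7 and Ccl12 shared another pattern: they were high in untreated replicate 1 alone. Ccl7 read 11.18, 7.29 and 7.34 untreated and 12.65, 13.17 and 12.61 with LPS, so its LPS arrays were all above but the rise of 4.21 ± 0.96 (adjusted p = 0.00561) carries a wide error. Ccl2 read 10.56, 7.01 and 7.17 untreated and 12.08, 11.94 and 11.45 with LPS, and its call was lost without untreated replicate 3 (adjusted p = 0.0511). Ccl12 read 8.98, 6.11 and 6.45 untreated and 11.66, 11.49 and 10.87 with LPS. Untreated replicate 1 is from male cells, and the part of sex in this was not tested.

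Among ligands of the TNF superfamily 7 of 15 genes rose (median 0.55). Tnfsf10, which encodes the death ligand TRAIL, rose by 4.74 ± 0.25, and Tnfsf8, the CD30 ligand, by 3.24 ± 0.25. Tnf itself read 9.84, 8.26 and 8.55 untreated and 11.94, 11.51 and 11.37 with LPS, a smaller rise of 2.72 ± 0.36 from a higher start. Of 19 receptors of the superfamily 7 rose, led by Cd40 at 3.86 ± 0.21 and the death receptor Fas at 2.45 ± 0.36. Tnfrsf26 and Tnfrsf21, both receptors of the same superfamily, fell by 1.19 ± 0.14 and 0.89 ± 0.21.

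Secreted growth and vascular factors rose in 12 of 23 genes (median 0.64). Edn1, the vasoconstrictor endothelin 1, read 4.22, 4.66 and 3.50 untreated and 10.65, 10.40 and 9.96 with LPS. Csf1, the macrophage growth factor that the medium also supplies, rose by 2.88 ± 0.32, while its receptor Csf1r fell by 0.60. Vegfc, a lymphatic growth factor, and Inhba, the activin A subunit, rose by 2.38 ± 0.55 and 2.31 ± 0.45. Hgf fell by 1.19 and Kitl fell by 1.02, and both calls were lost without untreated replicate 3 (adjusted p = 0.0610 and 0.157) or LPS replicate 2 (0.0728 and 0.148). That of Kitl was also lost without untreated replicate 1 (0.140) or LPS replicate 3 (0.0631), with only the 6 arrays and with robust eBayes.

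Genes for nitric oxide, itaconate, oxidants, polyamines and lipid mediators rose in 15 of 26 cases (median 1.47). Ch25h makes 25-hydroxycholesterol, an antiviral oxysterol. It read 9.19, 6.61 and 6.39 untreated and 12.85, 12.58 and 12.59 with LPS, so the LPS arrays lay together and untreated replicate 1 again stood above the others. Slc7a2, which carries arginine into the cell for nitric oxide synthase, rose from 5.20, 5.35 and 5.74 to 10.42, 11.22 and 11.28 (5.54 ± 0.33). Slc7a11, the cystine importer that feeds glutathione, rose by 4.97 ± 0.52 from 5.18, 6.93 and 5.16 to 11.38, 10.26 and 10.52. Acod1, which makes itaconate, rose by 3.30 ± 0.48. The oxidase subunits Cybb, Cyba, Ncf1 and Ncf4 changed by 0.28, -0.18, -0.48 and -0.02, none past the test.

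Of 24 subunits and regulators of the NF-kB system 15 rose and 1 fell (median 0.89). The largest rise was that of an inhibitor: Tnfaip3, which encodes the ubiquitin editor A20, went from 7.60, 7.33 and 7.81 to 10.88, 10.88 and 11.38 (3.47 ± 0.20, adjusted p = 6.64e-08), and Nfkbia, Nfkbie and Tnip1 rose by 2.06, 1.78 and 1.70. The subunit genes Nfkb2 and Rel rose by 1.53 and 1.23, while Rela at 0.36 and Relb at 0.65 did not pass the test. Map3k14, the kinase NIK of the noncanonical pathway, fell by 0.78 ± 0.16. Whether the inhibitors and the subunits differ as groups was not tested.

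Other transcription factors were split. Of 29 AP-1, ATF, EGR and C/EBP factors 12 rose, among them Batf2 at 3.08 ± 0.17, Mafk at 1.90 ± 0.19, Atf3 at 1.76 ± 0.17 and Cebpb at 1.55 ± 0.20, and Cebpa fell by 1.07 ± 0.19, the 1 fall of the list (2 without LPS replicate 2). Of 14 IRF and STAT factors 7 rose, with Irf7, the amplifier of the interferon response, going from 8.93, 9.20 and 8.87 to 11.20, 11.33 and 11.20. Irf3, the factor that TRIF activates, fell from 7.09, 7.36 and 7.39 to 6.68, 6.56 and 6.37 (fell by 0.74 ± 0.14), and Stat6, which carries interleukin 4 signals, fell by 0.83 ± 0.14. Neither overlapped between groups. Among 27 macrophage lineage factors 5 rose and 7 fell (18.5% and 25.9%, against 11.1% and 30.8% of all genes in the brightest quartile). Fli1 went from 9.59, 9.88 and 10.02 to 8.10, 8.08 and 7.55, and Mef2c fell by 1.81 ± 0.17. The lysosome regulator Tfeb fell by 1.38 ± 0.17, and the lymphoid and myeloid factor Ikzf1 rose by 1.58 ± 0.15. The 5 rises became 3 after quantile normalization, 8 after cyclic loess and 3 without LPS replicate 2 or without LPS replicate 3.

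Feedback inhibitors went both ways, 15 higher and 9 lower of 34 (median 0.32). Socs3, which stops gp130 receptors, rose from 6.69, 6.82 and 6.26 to 10.72, 10.94 and 11.04 (4.31 ± 0.17, adjusted p = 2.68e-09). The MAP kinase phosphatases Dusp2 and Dusp1 rose by 3.38 ± 0.27 and 2.93 ± 0.27, and Dusp3 fell by 1.19 ± 0.18. Zfp36l2 and Zfp36l1 encode proteins that bind AU-rich RNA and shorten its life. Zfp36l2 fell from 10.19, 10.55 and 10.18 to 6.81, 8.45 and 7.29 (fell by 2.79 ± 0.36), and Zfp36l1 by 1.69 ± 0.37. Tsc22d3, the glucocorticoid-induced leucine zipper, fell by 1.81 ± 0.24.

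Receptors of microbial products were mixed, and the LPS receptor fell. Of 23 Toll-like receptors, coreceptors and adaptors 8 rose and 4 fell (median 0.21). Tlr4 read 8.59, 8.92 and 9.11 untreated and 7.92, 7.56 and 7.66 with LPS, a fall of 1.16 ± 0.17 (adjusted p = 0.000190), while its coreceptor Cd14 rose by 1.11. The nucleic acid receptors parted. Tlr3, for double-stranded RNA, rose from 6.20, 6.24 and 6.46 to 9.07, 8.66 and 8.72, whereas Tlr13, for bacterial ribosomal RNA, fell by 1.72 ± 0.24 and Tlr9, for CpG DNA, by 1.31 ± 0.33. Traf1, Irak2 and Myd88 rose by 3.08, 1.44 and 1.33.

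Cytosolic sensors of microbial products and their adaptors rose in 16 of 19 genes. Ifih1, which encodes the RNA sensor MDA5, rose by 2.86 ± 0.19, as did Nod1, a peptidoglycan sensor, by 2.37 ± 0.26 and Zbp1, a Z-form nucleic acid sensor, by 2.23 ± 0.21. Adaptors below them fell: Mavs, which serves MDA5, went from 8.41, 8.72 and 8.59 to 7.29, 7.39 and 7.02, and Sting1, which serves cGAS, fell by 0.53 ± 0.17. The call of Sting1 was lost without any 1 of the 3 untreated arrays and without LPS replicate 2 or 3 (adjusted p = 0.0595 to 0.122), and after cyclic loess (0.195). Among 26 inflammasome and cell death genes 12 rose and 5 fell (median 0.48), and the 12 became 7 without LPS replicate 3, while the 5 became 3 after quantile normalization or cyclic loess and without untreated replicate 1, untreated replicate 3, LPS replicate 1 or LPS replicate 3. Nlrp3 rose by 2.07 ± 0.17 and Cflar, which encodes the caspase 8 inhibitor FLIP, by 2.21 ± 0.18. Nlrp1b, the sensor of anthrax lethal factor, fell by 1.57 ± 0.30.

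Interferon effectors rose almost as a body, and no interferon gene passed the test at this time. All 12 measured guanylate-binding, immunity-related and Mx GTPases rose (median 3.92), as did 33 of 38 IFIT, OAS and other effectors (median 1.73). Gbp3, whose promoter held 2 overlapping ISRE matches, went from 7.39, 7.25 and 7.13 to 11.54, 11.66 and 11.90. Ifit1, with 2 ISRE matches, went from 8.43, 8.57 and 7.83 to 12.61, 12.78 and 12.87. Several effectors were already high untreated: Rsad2, which encodes viperin, read 9.39, 9.32 and 8.51 and rose to 13.50, 13.44 and 13.41. Of 14 interferon genes 0 passed the limma test and 0 had an unadjusted p under 0.05, with a median change of 0.24 and a median untreated signal of 4.17. Without untreated replicate 2 or without LPS replicate 1 there was 1 call. Ifnb1 read 3.99, 4.08 and 3.48 untreated and 4.22, 3.91 and 3.71 with LPS, and its groups overlapped.

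Cytokine receptors and their kinases rose in 17 and fell in 7 of 34 genes (median 0.58), and the 17 became 11 without untreated replicate 1. Jak2 went from 7.90, 8.21 and 8.17 to 11.01, 11.19 and 11.62 (3.18 ± 0.18). Il15ra, which presents interleukin 15, rose by 3.46 ± 0.17, and Il13ra1 and Il4ra, the receptor chains for interleukins 4 and 13, by 2.35 ± 0.19 and 1.67 ± 0.26. Ifngr1, a chain of the interferon gamma receptor, fell from 10.34, 10.75 and 10.76 to 9.34, 8.72 and 9.23. Lifr, Tgfbr1 and Il6ra fell by 1.98, 1.41 and 1.28.

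Of 28 costimulation, adhesion and activation genes at the cell surface 12 rose and 1, Itgam, fell (median 0.67). The call of Itgam depended on the settings given above. Among the rises were Cd274, which encodes the inhibitory ligand PD-L1 and went from 6.84, 7.03 and 7.17 to 11.04, 10.73 and 11.33 (4.02 ± 0.18), and Cd86, a ligand of CD28, which rose by 3.34 ± 0.23. Of 30 receptors for debris and dying cells 11 fell (36.7%, against 30.8% of all genes in the brightest quartile) and 4 rose (median -0.30). The 11 became 6 after cyclic loess, without untreated replicate 3 or without LPS replicate 3. The apoptotic cell receptors Mertk and Axl are kinases of 1 family. Mertk fell from 8.42, 8.87 and 9.41 to 7.17, 6.16 and 7.34 (fell by 2.01 ± 0.29), and Axl rose from 7.17, 7.28 and 7.67 to 8.53, 8.22 and 8.89 (1.17 ± 0.22). Olr1, a receptor for oxidised LDL, rose by 5.63 ± 0.30. Of 15 Fc and related receptors 3 rose, each a receptor of IgG: Fcgr2b at 1.95, Fcgr4 at 1.71 and Fcgr1 at 1.13. Fcrl1, of the Fc receptor-like family, fell from 6.33, 6.36 and 7.02 to 5.65, 5.28 and 5.79 (adjusted p = 0.00412).

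**Figure D3:**
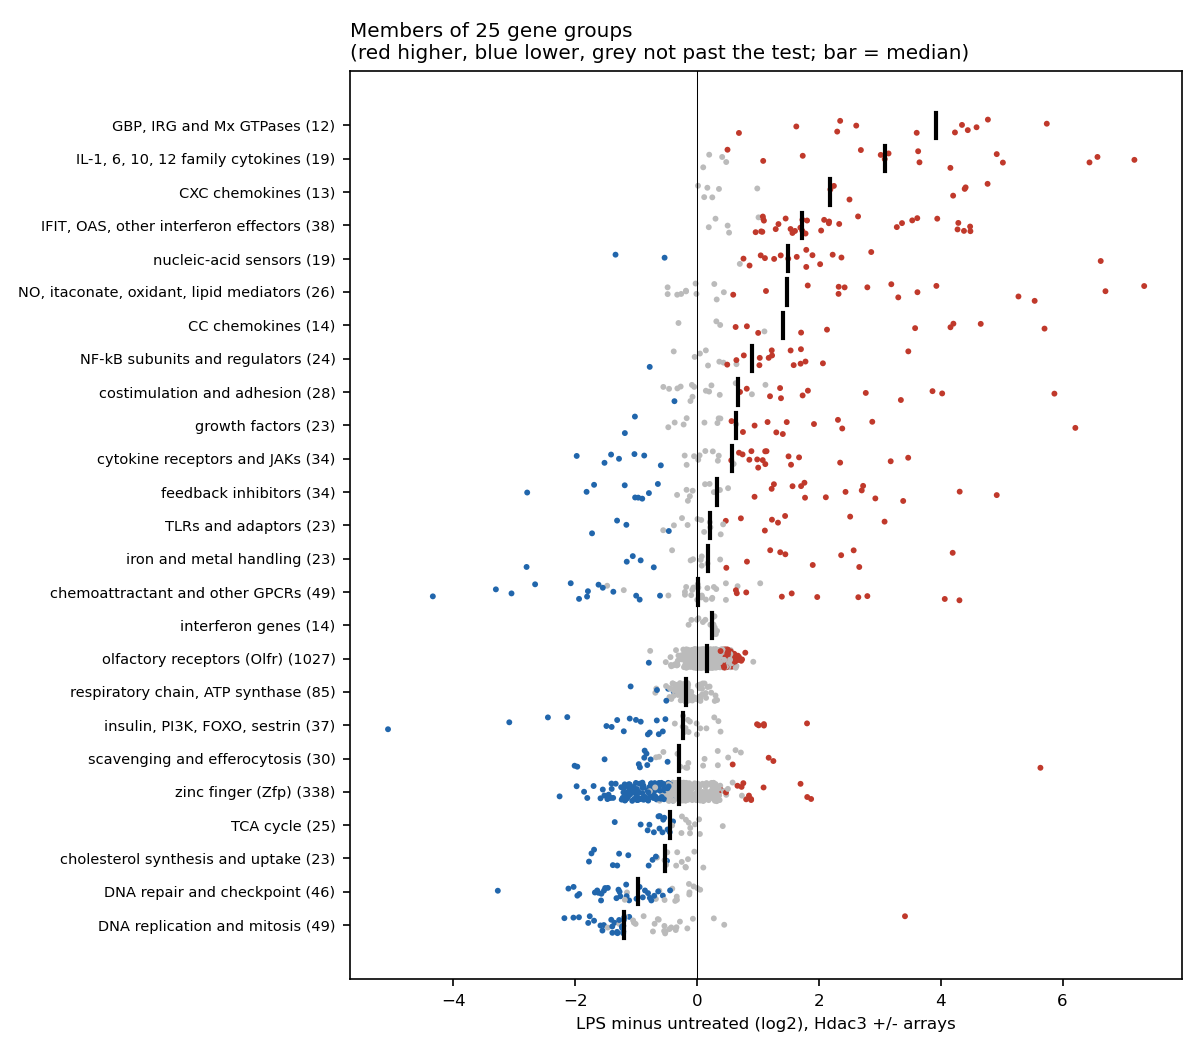
Change with LPS (log2, x axis) of each member of 25 gene groups (y axis, number measured in brackets); red members rose, blue fell, grey did not pass the test, and the bar is the group's median. Medians run from 3.92 for the guanylate-binding and related GTPases to below -1 for DNA replication and mitosis.

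Iron genes went both ways. Of 23 iron and metal genes 10 rose and 5 fell (median 0.17), and the 5 became 3 after cyclic loess or without untreated replicate 3. Slc40a1, which encodes ferroportin, the iron exporter, fell from 7.03, 7.47 and 9.07 to 5.23, 4.23 and 5.72 (fell by 2.80 ± 0.51, adjusted p = 0.00128), and the transferrin receptor Tfrc fell by 1.15 ± 0.26. Lcn2, which captures bacterial siderophores, rose from 6.62, 8.02 and 5.77 to 10.94, 11.41 and 10.64, the importer Slc39a14 by 2.57 ± 0.36 and the metallothionein Mt2 by 2.66 ± 0.41. Few complement genes changed: of 16 measured 1 rose and 1 fell, with a median of 0.03 that turned to -0.01 after cyclic loess and -0.05 after centring. The 1 rise was large: Cfb, the factor B of the alternative pathway, went from 6.44, 7.60 and 6.18 to 10.96, 11.24 and 11.17. The 1 fall, Cd59a, was lost without untreated replicate 3, LPS replicate 2 or LPS replicate 3 (adjusted p = 0.0754, 0.0704 and 0.0579), and without LPS replicate 1 there were 2 falls. Among 18 coagulation and fibrinolysis genes 7 rose, led by Serpinb2, a plasminogen activator inhibitor, at 4.84 ± 0.51 and Procr, the protein C receptor, at 3.33 ± 0.33.

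The falls included receptors of chemoattractants, lipids and endocannabinoids. Of 49 such G protein-coupled receptors 10 rose and 14 fell, with a median of 0.01 that turned to -0.09 after cyclic loess and -0.07 after centring. Gpr183, the receptor of 7α,25-dihydroxycholesterol, a product made from that of Ch25h, fell from 8.04, 6.68 and 7.75 to 4.08, 4.36 and 4.89 (fell by 3.05 ± 0.37, adjusted p = 4.52e-05). Cxcr4, the receptor of Cxcl12, which holds cells in the marrow, fell from 9.17, 11.10 and 10.89 to 5.67, 5.86 and 6.62. Opposite to these, the scavenging receptor Ccrl2 rose from 5.86, 6.92 and 6.05 to 10.72, 10.49 and 10.53, and Hcar2, the niacin and butyrate receptor, from 6.35, 5.69 and 4.87 to 9.54, 9.75 and 9.82. Gpr84, a receptor of medium-chain fatty acids, rose by 2.79 ± 0.45. Of 38 regulators of small GTPases and G proteins 13 were higher and 13 lower, but 13 and 8 after quantile normalization and 14 and 9 after cyclic loess, with a median of 0.08 that turned negative, by under 0.01, after centring. Arhgef3 and Rin2 rose by 2.21 and 2.17, while Rasgrp3, Rab3il1, Rgs2 and Rasa3 fell by 3.97, 3.22, 2.43 and 2.09.

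Genes around insulin, PI3K and FOXO signals fell in 17 of 37 cases and rose in 5 (median -0.24). Sesn1, a leucine-sensing inhibitor of mTORC1, had the largest fall of the named genes, from 9.66, 9.79 and 10.65 to 5.21, 4.64 and 5.03. Trp53inp1, a p53 target that promotes autophagy, fell from 8.11, 8.64 and 9.32 to 6.18, 5.12 and 5.52. The insulin receptor Insr fell by 2.45 ± 0.24, and Tbc1d4, which controls glucose transporter traffic, fell by 2.13 ± 0.24. The factors Foxo3, Foxo4 and Foxo1 fell by 1.49, 1.00 and 0.81, the last with a call lost after quantile normalization (adjusted p = 0.0695). Sesn2 also fell, with an adjusted p of 5.01e-05, and Sesn3 changed by 0.15. Klf7 and Bcl6 rose by 1.80 and 1.10.

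Genes of DNA repair and the damage checkpoint fell in 31 of 46 cases and rose in 0 (0 also at an unadjusted p under 0.05), with a median of -0.97. The 31 ranged from 21 to 35 when any 1 array was left out. Chek2, a checkpoint kinase with an E2F match in its promoter, went from 9.09, 8.74 and 8.94 to 6.55, 5.14 and 5.27 (fell by 3.27 ± 0.29, adjusted p = 2.69e-06). Msh6, of mismatch repair, went from 7.60, 6.79 and 7.52 to 5.15, 5.41 and 5.02. Brca1 and Neil3 fell by 2.03 ± 0.41 and 1.97 ± 0.38. DNA replication and mitosis genes fell in 24 of 49 cases (median log2 change below -1), a count that rested on single arrays: it was 41 without untreated replicate 2, 10 without untreated replicate 1 or untreated replicate 3, and 11 without LPS replicate 2. Untreated replicate 2 was lower in these genes than the other untreated arrays: Rrm2, a subunit of ribonucleotide reductase, read 10.23, 8.50 and 9.89 untreated and 8.62, 6.57 and 7.34 with LPS, so replicate 2 was lowest in both groups, and the groups overlapped. Mcm3, of the replicative helicase, read 9.86, 8.63 and 9.40, then 8.17, 6.43 and 7.47, without overlap. The cyclin Ccnd2 was the 1 member that rose, from 7.39, 6.41 and 6.14 to 10.09, 9.81 and 10.28. Fewer cells in cycle and less of these RNAs per cell cannot be told apart in bulk RNA.

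Of 44 histone and DNA modifying enzymes 13 fell (29.5%, against 30.8% of all genes in the brightest quartile) and 5 rose (median -0.22). After cyclic loess 10 fell and 9 rose, with a median of -0.03. Dnmt1, the maintenance DNA methyltransferase, fell from 9.86, 9.19 and 9.87 to 8.30, 7.36 and 7.61, and the H3K9 methyltransferase Setdb1 fell by 1.30 ± 0.12. Its relative Setdb2 rose from 6.75, 6.66 and 7.05 to 9.31, 9.04 and 9.57 (2.49 ± 0.17, adjusted p = 2.83e-07). Tet2 and Kdm6b, which remove DNA and H3K27 methylation, rose, Tet2 by 1.87 ± 0.24. Of 338 genes named Zfp, 122 fell (36.1%) and 13 rose (3.85%), with a median of -0.29. After cyclic loess 106 fell and 19 rose, after quantile normalization 112 and 21, and without LPS replicate 1 or without untreated replicate 2 the rises became 22 and 20. Zfp273 went from 4.79, 4.37 and 5.63 to 2.43, 2.15 and 3.44, and Zfp281, a repressor known from stem cells, rose by 1.81 ± 0.15.

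Of 25 genes of the tricarboxylic acid cycle 14 fell (median -0.45), but 7 did after cyclic loess or without LPS replicate 3 and 9 without LPS replicate 2. Idh1, the cytosolic isocitrate dehydrogenase, fell by 1.35 ± 0.33 and Fh1, fumarase, by 0.78 ± 0.16. Of 32 fatty acid oxidation and peroxisome genes 10 fell (31.25%, against 30.8% of all genes in the brightest quartile) and 1 rose. Abcd2 led the falls at -2.21 ± 0.33. The 1 rise (2 after cyclic loess, 0 after centring) was lost without untreated replicate 1, untreated replicate 3 or LPS replicate 2. It was also lost with only the 6 arrays and with array weights. The desaturase Scd2 went from 10.77, 11.40 and 9.55 to 7.98, 8.14 and 6.13, so replicate 3 was lowest in both groups. Stard4, which carries cholesterol, fell by 1.69 ± 0.14 and Dhcr7, of cholesterol synthesis, by 1.77 ± 0.19. Isoforms of a glycolysis regulator parted: Pfkfb3 rose from 7.08, 8.10 and 7.48 to 10.75, 11.26 and 11.60, while Pfkfb4 fell by 1.47 ± 0.24, both enzymes of the activator fructose bisphosphate. Eif2ak3, which encodes the endoplasmic reticulum stress kinase PERK, fell from 7.98, 8.28 and 8.08 to 6.23, 6.18 and 5.66. In the large housekeeping families few genes passed: 0 of 65 cytosolic ribosomal protein genes rose and 3 fell, and 0 of 85 respiratory chain and ATP synthase genes rose and 5 fell (unadjusted p under 0.05, 1 and 15, then 1 and 20). Both fall counts changed with the data used: 15 and 13 after quantile normalization, 1 and 2 after cyclic loess and 8 and 12 after centring. Without LPS replicate 1 they were 6 and 16, without untreated replicate 2 the ribosomal count was 6, and without LPS replicate 3 they were 1 and 1. Without LPS replicate 2 the respiratory count was 1, and without untreated replicate 3 the ribosomal count was 1.

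For making and importing cholesterol, 23 genes were measured, of which 11 were lower and 0 rose (0 also at an unadjusted p under 0.05 in limma). The 11 became 7 after quantile normalization, 8 after cyclic loess and 15 after centring. Of 40 autophagy and lysosome genes 16 fell and 1 rose (3 after cyclic loess; median -0.44), among the falls Ulk2, an autophagy kinase, at -1.69 and Atg14, of the autophagosome lipid kinase, at -1.38. Of 28 genes of the unfolded protein response 9 fell (32.1%, against 30.8% of all genes in the brightest quartile) and 1 rose. The 9 became 5 without untreated replicate 1, LPS replicate 2 or LPS replicate 3. The 1 rise became 2 without untreated replicate 2 or after quantile normalization and 3 after cyclic loess. Of 40 proteasome genes 5 were higher and 2 lower (10 and 1 after cyclic loess). The immunoproteasome subunits Psmb10, Psmb9 and Psmb8, which shape peptides for MHC class I, rose by 1.54, 0.86 and 0.80. Without untreated replicate 1 the 5 became 12 and the 2 became 0, and without untreated replicate 3, LPS replicate 2 or LPS replicate 3 the 2 also became 0.

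Nuclear receptors and clock genes fell more often than they rose, as did all genes of similar untreated signal. The median untreated signal was 6.73 for the nuclear receptors and 6.68 for the clock genes. In the quartile of all genes with an untreated signal of 5.51 to 7.68, 27.96% fell and 10.51% rose. Of 24 nuclear receptors 6 fell (25%) and 2 rose (8.33%), with a median of -0.13, and the 2 became 4 without LPS replicate 1. Pparg and its partner Rxra fell by 1.19 ± 0.15 and 1.15 ± 0.15, while the glucocorticoid receptor Nr3c1 rose from 8.44, 8.44 and 8.66 to 9.81, 9.55 and 9.99. Of 18 clock genes 6 fell (33.3%) and 2 rose (11.1%), with a median of -0.22. Bhlhe41 and Dbp fell by 2.06 ± 0.31 and 1.27 ± 0.29, and Nfil3, which opposes Dbp at D-box sites, rose by 1.88 ± 0.27.

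Probe sets for microRNA genes were followed next. The signal comes from cDNA of total RNA over the gene, so it may be of the precursor, and mature forms were not measured apart. Mir155, which targets inhibitors of inflammation, read 4.07, 4.67 and 4.02 untreated and 8.92, 9.19 and 9.50 with LPS, a rise of 4.95 ± 0.29 (adjusted p = 6.42e-08). Mir221 and Mir222, with 1 seed, rose together, from 5.96, 5.23 and 6.33 to 7.73, 7.91 and 8.69 and from 4.38, 4.20 and 5.00 to 6.55, 6.46 and 7.21. Mir146 and Mir146b, both known to be induced by NF-kB, changed by 0.39 ± 0.39 and 0.41 ± 0.20 and did not pass the test.

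Of the microRNA genes shown above, those with the let-7 and miR-99 seeds rose at 1 locus and fell at another. On chromosome 17 Mirlet7e rose from 6.17, 6.04 and 5.82 to 6.98, 7.39 and 7.66 (1.33 ± 0.22, adjusted p = 0.000532). Its neighbours Mir125a and Mir99b rose by 0.78 ± 0.22 and 0.64 ± 0.18. On chromosome 16 Mir99a fell from 5.54, 4.96 and 6.61 to 4.20, 3.69 and 4.89 (fell by 1.45 ± 0.35, adjusted p = 0.00797). Mirlet7c-1 fell from 5.28, 4.76 and 5.90 to 3.82, 3.49 and 4.50 (fell by 1.37 ± 0.34, adjusted p = 0.00941), and their host transcript Mir99ahg fell by 1.02 ± 0.31. For both Mir99a and Mirlet7c-1 the lowest untreated array lay above the highest LPS array, by a small gap. The calls of Mir125a and Mir99b were lost without untreated replicate 3 (adjusted p = 0.0635 and 0.0651), LPS replicate 2 (0.0588 and 0.0774) or LPS replicate 3 (0.0815 and 0.0702). With only the 6 arrays the call of Mir99b was lost as well (adjusted p = 0.0638). That of Mirlet7c-1 was lost without untreated replicate 3 (adjusted p = 0.0507), and that of Mir99ahg without untreated replicate 3 or LPS replicate 2 (0.116 and 0.107) and with array weights or quantile normalization (0.0513 and 0.0540). Over all 300 microRNA genes 21 rose (32 after quantile normalization) and 11 fell (median 0.15), and leaving out 1 array gave 10 to 39 rises and 4 to 17 falls: without LPS replicate 1 39 rose, without untreated replicate 3, LPS replicate 2 or LPS replicate 3 10 rose, without untreated replicate 2 17 fell, and without untreated replicate 1, untreated replicate 3 or LPS replicate 3 7, 4 and 5 fell.

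**Figure D4:**
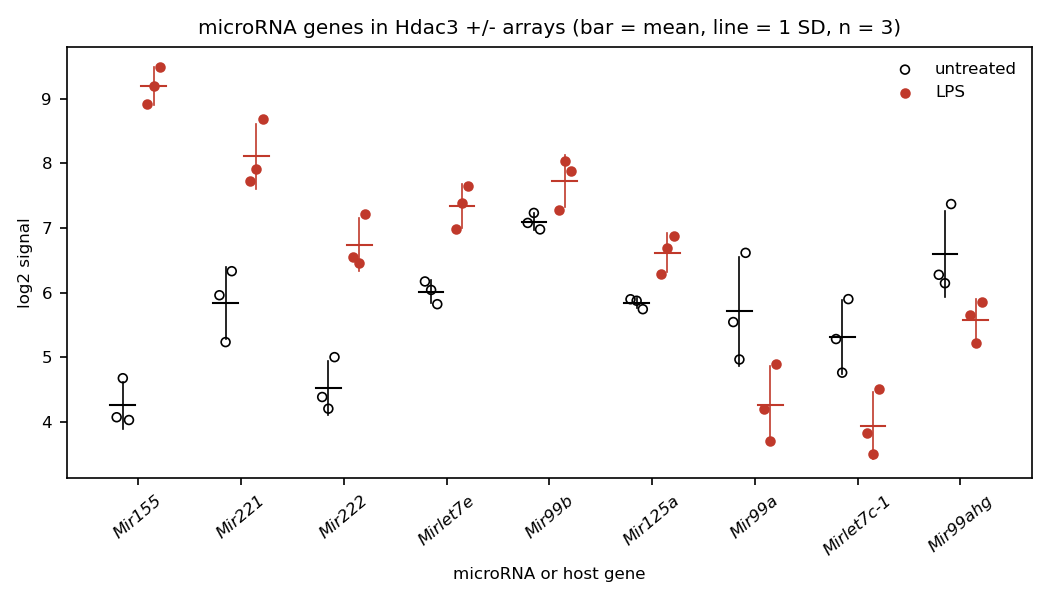
Log2 signal (y axis) of 9 microRNA or host genes (x axis) in the 3 untreated (open) and 3 LPS (filled) arrays, with the mean as a bar and 1 SD as a line. Mir155 rises by 4.95, Mirlet7e by 1.33 and its same-seed relative Mirlet7c-1 changes by -1.37.

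Promoter letters were then counted in RefSeq windows of 300 bases, from 250 before to 50 after each start, which were given for 15618 of the genes (19183 windows). The narrower NF-kB letters (GGG, any 2 bases, then TTTCC) were chosen after values were seen. They stood in 8 of 99 windows (8.08%) of genes that rose at least 8-fold, against 1.57% of all windows and 1.04% of those of genes that fell at least 2-fold. The ISRE letters stood in 19.2%, 3.27% and 2.07%, and the AP-1 letters TGANTCA in 22.2%, 6.91% and 4.14%. These shares are descriptions, with no test. They count windows: the 99 come from 80 genes, so a gene with several starts can count more than once, as Il1rn did for NF-kB. The E2F letters TTTCCCGC or TTTGGCGC went the other way, with 5.61% of windows of genes that fell at least 2-fold, 2.21% of all and 1.01% of those that rose at least 8-fold. The wider NF-kB letters (GGG, any 5 bases, then CC) were planned first and include every NF-kB match above. They stood in 57.6% of windows of the largest rises and 58.9% of all, and so set nothing apart. The CRE letters TGACGTCA stood in 1.01% of windows of the largest rises, 3.02% of falls of at least 2-fold and 2.37% of all. All motifs were read on both strands.

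Base composition moved with these shares. The median window held 6 CpG in genes that rose at least 8-fold, 14 in those that rose at least 2-fold, 15 over all genes and 21 in those that fell at least 2-fold. The letters TATAAA stood in 26.3% of windows of the largest rises, 11.5% of all and 6.30% of falls of at least 2-fold. Both also follow untreated signal: the median count of CpG was 3, 10, 20 and 22 from the lowest to the highest quartile of signal, TATAAA stood in 22.9%, 11.1%, 6.81% and 6.76%, and TGANTCA in 10.9%, 7.82%, 4.91% and 4.74%. The narrower NF-kB letters and the ISRE letters lay between 1.35% and 1.78% and between 2.60% and 4.36% in the 4 quartiles, below their shares in the largest rises. Of the 30 largest rises 22 had a window, and 4 held the narrower NF-kB letters, 6 the ISRE letters and 9 either. Of the 30 largest falls 22 had a window, with 0 NF-kB, 1 ISRE (Sec14l1) and 1 E2F match (Chek2).

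**Figure D5:**
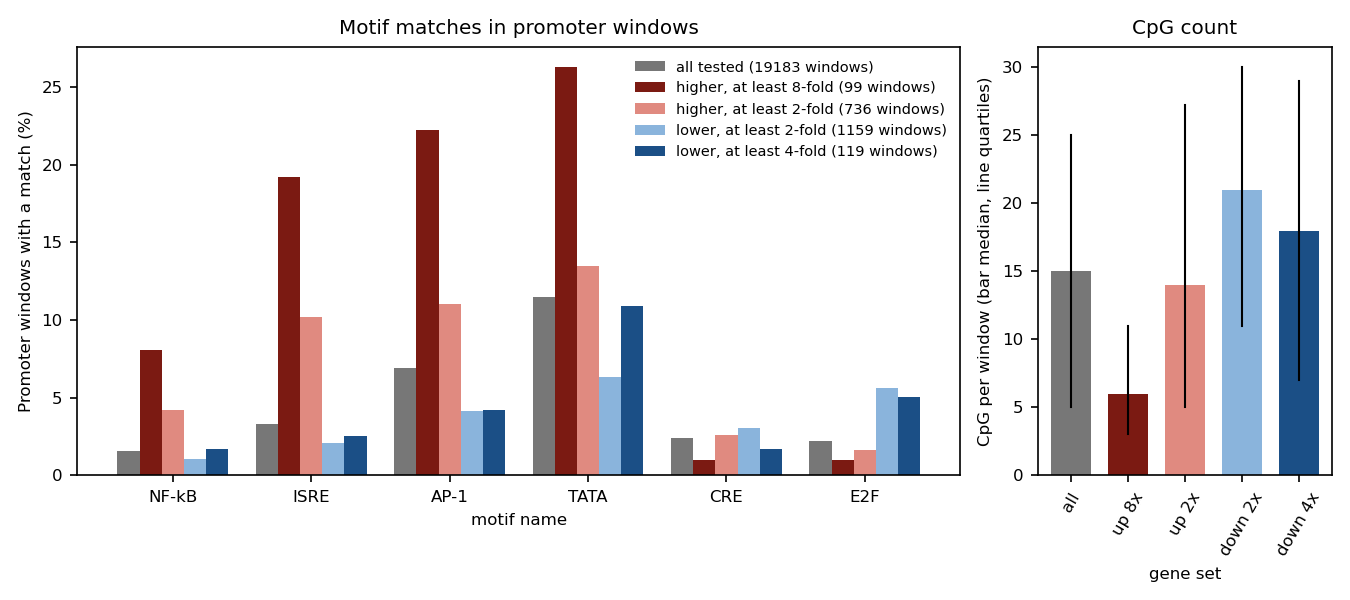
Percent of 300-base promoter windows with a motif match (left) and the CpG count per window, as median and quartiles (right), for all tested genes and for genes higher or lower with LPS by the fold given. The darkest red bars, genes that rose at least 8-fold, are highest for NF-kB, ISRE, AP-1 and TATA, and both blue bars are highest for E2F. The NF-kB bars show only the narrower letters, chosen after values were seen, and not the wider ones planned first.

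Some genes that changed at least 2-fold lay side by side. Among 19855 genes placed in chromosome order, 17 runs of 3 or more neighbours rose (65 genes) and 11 fell (35 genes). Over all genes 3.57% rose and 5.41% fell at least 2-fold, and the number of runs that a random order would give was not computed. The longest held 8 Schlafen genes on chromosome 11, Slfn5 to Slfn3, with changes of 1.05 to 4.29. The PYHIN genes of chromosome 1, from Ifi214 to Ifi203, made a run of 6 (1.29 to 4.09), and the Ifit genes of chromosome 19 a run of 5 (1.90 to 4.48). Other risen neighbours were Il19, Il10 and Mapkapk2, the caspases Casp1, Casp4 and Casp12 (Casp4 not called without LPS replicate 3, adjusted p = 0.0565), Parp14, Dtx3l and Parp9, and Tnfsf15, Tnfsf8 and Tnc. On chromosome 14 Phf11a, Phf11d, Phf11c and Setdb2 rose together (2.49 to 3.10), so the rise of Setdb2 stood among its neighbours. Among the falls, Klhl6, Klhl24 and Yeats2 made a run on chromosome 16 (-3.31 to -1.51). Members of copied families such as Slfn, Ifi, Ifit and Gbp are alike in sequence, so probe sets may read each other's RNA.

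The response was compared with that of Hdac3 -/- cells by the interaction of genotype and LPS, which 216 of 19945 genes passed (1.08%), 155 more positive (0.777%) and 61 more negative (0.306%) in +/- cells. The count was 126 without LPS replicate 3 and 349 without LPS replicate 1 of the +/- cells. Of the 372 genes named by rule 36 passed, but the rule chose genes largely by their change in the same +/- arrays, so that share is not a result. Tnc, the matrix protein tenascin C, changed by 4.66 ± 0.16 in +/- cells and by 0.29 ± 0.16 in -/- cells, a difference of 4.36 ± 0.23 (adjusted p = 8.63e-07). Ccnd2 changed by 3.41 and 0.33, Tlr3 by 2.51 and 0.46, and Nod1 by 2.37 and -0.27. In -/- cells the changes of Tnc, Ccnd2, Tlr3 and Nod1 did not pass the limma test (adjusted p = 0.365, 0.537, 0.0585 and 0.672). Edn1 rose by 6.21 and 2.50, and Mir155 by 4.95 and 2.42. Cxcl10 went the other way, with a rise of 4.20 from 9.51 in +/- and of 6.99 from 5.66 in -/- cells. Its untreated level was lower in -/- cells. Il10, by contrast, rose by 4.16 and 4.05, with a difference of 0.11 ± 0.51, which the test did not call (adjusted p = 0.956).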

How the data were processed

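RNA was measured on 12 arrays, and none was left out. The authors deposited a log2 signal for each probe set; RMA and affy are the tools that the submitters' processing notes name. The sources used here give no version, chip description file or build. Of 28193 probe sets 21648 had 1 symbol in the platform annotation, 1313 had several and 5232 had none. The brightest probe set stood for each of 954 genes with several. limma 3.58.1 (R 4.3.3) fitted 4 group means to all 12 arrays, so that all groups share 1 estimate of spread, with eBayes. The contrast was LPS minus untreated in Hdac3 +/- cells, adjusted by Benjamini-Hochberg over 19945 genes at 0.05, and tested on simulated data. Errors are 1 SE of the model. Tables and figures used Python 3.11.15, pandas 2.3.3, numpy 2.4.6 and matplotlib 3.10.9. Precision is limited by the number of arrays.

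The members, the 57 gene lists and 12 marker lists were chosen with earlier results of these data known; lists were described by counts and medians, with no set test, and 2 name patterns (ribosomal protein and Zfp genes) were narrowed after the data were seen. Genes were named by a rule: up to 30 in each direction with the largest change, no overlap of groups and no predicted, clone or small RNA name; the 10 largest rises in the highest quartile of untreated signal; up to 4 members of each list in each direction, or the 2 with the smallest p; and Tnf, Il10, Ifnb1, Tlr4, Hdac3 and the markers. Genes beyond it (Il12b, Acod1, Cybb, Cyba, Ncf1, Ncf4, Nfkb2, Rel, Rela, Relb, Foxo1, Foxo3, Foxo4, Sesn2, Sesn3, Mir146, Mir146b, Mir125a, Mir99b, Mir99ahg and members of runs) and the narrower NF-kB letters were chosen after values were seen. Of probe sets with 1 symbol 21553 matched RefSeq GRCm38.p6 by Entrez identifier, the source of sequences and gene order.

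Replicate numbers were checked as pairs: across genes, deviations from the group means of same-numbered untreated and LPS arrays correlated at 0.243, 0.327 and 0.223, and other pairs at -0.305 to 0.107. All 3 exceed every other pair, of which untreated replicate 3 with LPS replicate 1 (0.107) also exceeds 0.1. Deviations from a mean of 3 arrays are tied to each other, so the other pairs are not independent of these. The numbers were taken to pair these arrays. The main fit did not use the pairing, so the errors, p-values and counts above are unpaired. A fit with the number as a block was an alternative. Other alternatives were only the 6 arrays, other scalings, a filter on dim genes, the mean of probe sets, eBayes settings, array weights, limma's treat against 2-fold and leaving out each array.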

Additional observations from a re-analysis of the deposited data

Results flagged for a closer look

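The LPS response of 36 of 372 named genes differed from that in Hdac3 -/- cells by the interaction test (adjusted p under 0.05). The named genes were chosen largely by the size of their change in the same +/- arrays, which favours both a large share with a difference and larger +/- responses, so neither is read as a result here; 1.08% of all genes passed. The values below are the response in +/- minus that in -/- cells on the log2 scale. It was more positive in +/- cells for 30 genes. Among secreted and matrix proteins these were Mmp13 (2.55), Il6 (2.97), Edn1 (3.70), Il33 (3.69), Tnfsf10 (3.12), Tnfsf8 (2.76), Tnc (4.36) and Cxcl11 (3.44). Among enzymes, transporters and cell surface or GTPase genes they were Nos2 (2.40), Cd69 (2.38), Gbp4 (3.00), Slc28a2 (2.19), Slc28a2b (2.51), Steap4 (1.95), Cd86 (1.97), Lpar1 (1.81), Rin2 (2.77), Il15ra (2.74) and Il13ra1 (1.77). Among sensors, regulators, cell cycle and microRNA genes they were Ifi205 (1.87), Tlr3 (2.05), Nod1 (2.64), Tnfaip3 (1.29), Batf2 (1.92), Mafk (1.52), Dusp2 (2.64), Ikzf1 (1.23), Setdb2 (1.92), Ccnd2 (3.08) and Mir155 (2.53). It was more negative in +/- cells for 6 genes: Ints6l (-1.99), Cnr2 (-1.76), Cxcl10 (-2.78), Insr (-1.72), Stard4 (-0.97) and Zfp931 (-1.85). Cxcl10 rose in both genotypes, and the other 5 fell in +/- cells. Several rest near the threshold, among them Nos2, Il33, Tnfaip3 and Zfp931, whose interaction had adjusted p-values of 0.0492, 0.0454, 0.0476 and 0.0478.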

How the results depend on the processing

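Of 335 named genes called, 274 kept the call under each alternative that tested them (16, or 15 for genes that the filter on dim genes removed, treat not counted), 61 lost it under at least 1 and 0 reversed. Of the 712 genes that rose at least 2-fold 556 (78.1%) and of the 1080 that fell at least 2-fold 571 (52.9%) did so in all 16 settings other than the filter on dim genes. Genes higher numbered 1271 with only the 6 arrays and 1263 with the dimmer genes left out, where fewer genes were tested. Against a 2-fold change as the null (treat), 254 rose and 122 fell. After cyclic loess 717 fell at least 2-fold. With array weights 592 genes passed the interaction, and leaving out 1 array gave 126 to 349; the causes were not tested. With the replicate number as a block for the pairing, 2049 genes rose and 3429 fell, within 1.5 times of the fit without it. The number of arrays sets the limit: genes whose arrays spread widely, such as Ccl2 and Ccl7, need large changes to pass. Few of the dimmest genes were called lower, and the part of the lower end of the signal range in that was not tested.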
